A study of Mus musculus with 22 samples.

Results

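The genes described here are the matrix metalloproteases (MMPs), the ADAMTS proteases and the tissue inhibitors of metalloproteases (TIMPs). They were taken by a rule on names, as every protein-coding gene whose GENCODE symbol is Mmp, Adamts or Timp followed by a number. No measured value enters that rule, but it was set with earlier results of these data known. The rule gave 45 genes of the 43430 genes in the deposited files, namely 22 MMP, 19 ADAMTS and 4 TIMP genes. Of these, 30 carried enough counts to be tested (12 MMP, 14 ADAMTS and 4 TIMP genes), 13 had counts in some library but too few for a test, and 2, Mmp1b and Mmp7, had no count in any library.

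RNA was sequenced from muscle stem cells, the Pax7-expressing satellite cells that rebuild muscle fibres, sorted for ZsGreen from hindlimb muscles of Pax7-zsgreen mice that had been perfused and lightly fixed with paraformaldehyde. The 22 libraries form 6 groups: uninjured muscle at zeitgeber time (ZT, hours after lights on) 4 with 3 libraries and at ZT16 with 3, day 1 after cardiotoxin with 4 libraries at each time, and day 3 with 4 at each time. Cardiotoxin is a snake venom toxin that kills muscle fibres and is followed by repair; in injured mice ZT4 and ZT16 are labelled as times of the injury, and when tissue was taken is not labelled. All groups carry the same Pax7-zsgreen genotype and went through the same fixation, and the labels give no sex or age. The labels do not say whether the numbered replicates are separate mice, so the p-values measure only the spread between these libraries, which may be technical.

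MMPs are zinc proteases that cut collagens, laminins and other matrix proteins, as well as growth factors and receptors. ADAMTS proteases are secreted relatives that trim procollagens, cleave proteoglycans such as versican and aggrecan, or act on fibrillin-rich microfibrils. TIMPs bind the active site of these enzymes, and TIMP2 also takes part in the activation of pro-MMP2 by MMP14 at the cell surface. In muscle, stem cells lie beneath a basement membrane of laminin and collagen IV, which is a substrate of several of these enzymes.

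Library totals were 5965957 to 9751536 estimated counts, with 15875 to 23267 genes detected. Values below are CPM, gene counts relative to library totals scaled by TMM, listed in replicate order. Changes are log2 fold changes ± standard error from edgeR's quasi-likelihood test with Benjamini-Hochberg adjustment over 15084 genes, and a gene is said to rise or fall where its adjusted p was under 0.05. The stem cell markers (10 of 10) were detected in every group, including Pax7, at a mean of 330 CPM in uninjured ZT4 and 23.5 CPM in day-3 ZT16 libraries. Uninjured ZT16 replicates 1 and 3 stood apart from replicate 2 of that group, with Junb, an immediate early gene, at 10270 and 8791 against 624 CPM, and day-1 ZT16 replicate 4 had 431 CPM against 1539 to 2078 CPM in its group. Summed markers of macrophages and monocytes (14 genes, all detected in each group) were 17.3 to 98.2 CPM in uninjured, 1360 to 3982 CPM in day-1 and 292 to 985 CPM in day-3 libraries. In such pooled cells, fewer cells of a type and less RNA per cell cannot be told apart.

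A group of 9 MMP genes (Mmp1b, Mmp3, Mmp7, Mmp8, Mmp10, Mmp12, Mmp13, Mmp20 and Mmp27) lies side by side on GRCm38 chromosome 9, between 7272514 and 7699585. Only 3 of the 9 had enough counts to be tested (Mmp3, Mmp8 and Mmp12). With 2, 0 and 4 counts over the 6 uninjured libraries they met the count minimum through injured libraries alone, so that they were higher there follows from the filter and is no trait of the group. The promoters of those 3 genes and of Mmp13 are shown because they differ in a motif, and that of Timp1 because it was the member with the highest level per length at day 1. Each is the stretch of 250 bases before a RefSeq transcript start on GRCm38.p6, 5′ to 3′ in the direction of transcription. Capitals mark TGANTCA, the motif bound by AP-1 (Fos and Jun) factors, searched on both strands.
Mmp3 (chr9:7445572-7445821, plus strand): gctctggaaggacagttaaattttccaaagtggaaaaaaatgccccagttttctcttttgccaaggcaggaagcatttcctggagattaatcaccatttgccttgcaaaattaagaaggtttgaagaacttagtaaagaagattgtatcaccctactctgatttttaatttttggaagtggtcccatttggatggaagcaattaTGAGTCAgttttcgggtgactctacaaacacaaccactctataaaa
Mmp12 (chr9:7347124-7347373, plus strand): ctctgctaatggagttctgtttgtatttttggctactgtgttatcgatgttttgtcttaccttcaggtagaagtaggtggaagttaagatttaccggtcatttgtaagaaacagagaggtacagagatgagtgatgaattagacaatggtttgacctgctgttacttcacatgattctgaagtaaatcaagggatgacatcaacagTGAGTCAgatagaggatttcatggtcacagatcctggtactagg
Mmp13 (chr9:7272264-7272513, plus strand): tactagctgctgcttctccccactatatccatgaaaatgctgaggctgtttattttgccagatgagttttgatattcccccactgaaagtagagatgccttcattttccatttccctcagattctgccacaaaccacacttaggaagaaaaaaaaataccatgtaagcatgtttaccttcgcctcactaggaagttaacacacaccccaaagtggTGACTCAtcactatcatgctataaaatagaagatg
Mmp8 (chr9:7558179-7558428, plus strand): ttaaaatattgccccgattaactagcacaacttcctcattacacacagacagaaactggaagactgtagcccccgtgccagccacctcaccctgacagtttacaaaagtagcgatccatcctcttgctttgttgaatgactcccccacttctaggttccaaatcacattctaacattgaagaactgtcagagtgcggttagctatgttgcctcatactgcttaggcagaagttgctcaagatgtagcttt
Timp1 (chrX:20869916-20870165, plus strand): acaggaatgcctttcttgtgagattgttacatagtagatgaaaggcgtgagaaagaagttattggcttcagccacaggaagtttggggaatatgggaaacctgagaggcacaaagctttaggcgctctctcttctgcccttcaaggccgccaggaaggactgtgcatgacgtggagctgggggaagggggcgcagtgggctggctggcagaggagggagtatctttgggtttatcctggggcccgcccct

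The motif began 46 bases before the start of Mmp3, 44 before that of Mmp12 and 35 before that of Mmp13, and these letters did not occur in the windows of Mmp8 and Timp1. Among 31 member genes with a promoter in the RefSeq table, 7 held the motif, all within the chromosome 9 group (Mmp1b, Mmp3, Mmp7, Mmp10, Mmp12, Mmp13 and Mmp20), against 6.75% of 32851 promoters of the same length. A second Mmp12 start, chr9:7344147-7344396 on the plus strand, had no match. The E-box CACGTG, the motif bound by the clock proteins CLOCK and BMAL1, occurred in the windows of 2 member genes, Adamts17 and Mmp7, against 6.02% of all promoters. A match is a description of these letters only. Adamts17 gave few counts and Mmp7 none, so neither could be compared between the times.

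Levels of different genes were compared in TPM, transcript abundances that correct for transcript length. In uninjured cells Timp2 ranked first among members at 262 ± 29.1 TPM (SD, n = 6), followed by Adamts10 at 229 ± 98.1 TPM, Mmp2 at 222 ± 46.9 TPM and Adamts1 at 108 ± 74.6 TPM. The spreads of Timp2, Adamts10 and Mmp2 overlapped, so their order was not resolved. At day 1 Timp1 ranked first at 213 ± 25.2 TPM (n = 8), ahead of Timp2 at 126 ± 8.90 TPM, Adamts1 at 49.6 ± 17.1 TPM and Mmp14 at 32.1 ± 3.33 TPM. At day 3 the order was Timp2 at 188 ± 23.9 TPM (n = 8), Timp1 at 156 ± 12.3 TPM and Adamts4 at 62.7 ± 13.3 TPM.

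The summed level of the 22 MMP genes was 309 ± 57.2 TPM in uninjured, 92.0 ± 15.0 TPM in day-1 and 84.1 ± 14.9 TPM in day-3 cells. The 19 ADAMTS genes together gave 437 ± 183, 134 ± 28.9 and 124 ± 21.7 TPM, and the 4 TIMP genes 351 ± 66.4, 363 ± 17.7 and 352 ± 22.4 TPM. The uninjured means cover times that did not overlap, with ADAMTS sums of 238 to 306 TPM at ZT4 and 505.5 to 669.8 TPM at ZT16, and TIMP sums of 277 to 314 and 389 to 434 TPM. Protease sums were thus lower in every injured library than in every uninjured one, while the TIMP sums overlapped across the states. The TIMP sum divided by the sum of both protease families was 0.389 to 0.631 in uninjured, 1.37 to 2.54 in day-1 and 1.29 to 2.43 in day-3 libraries. This ratio of transcript levels is a description, and says nothing of active protein. Single genes carried these sums. Mmp2 made up 71.8% of the MMP sum in uninjured but 20.9% in day-1 and 17.0% in day-3 cells. Adamts10 made up 52.3% of the ADAMTS sum in uninjured cells, of which little was assigned to its coding transcript, and Adamts4 made up 50.3% at day 3. Timp1 made up 58.6% of the TIMP sum at day 1.

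**Figure D1:**
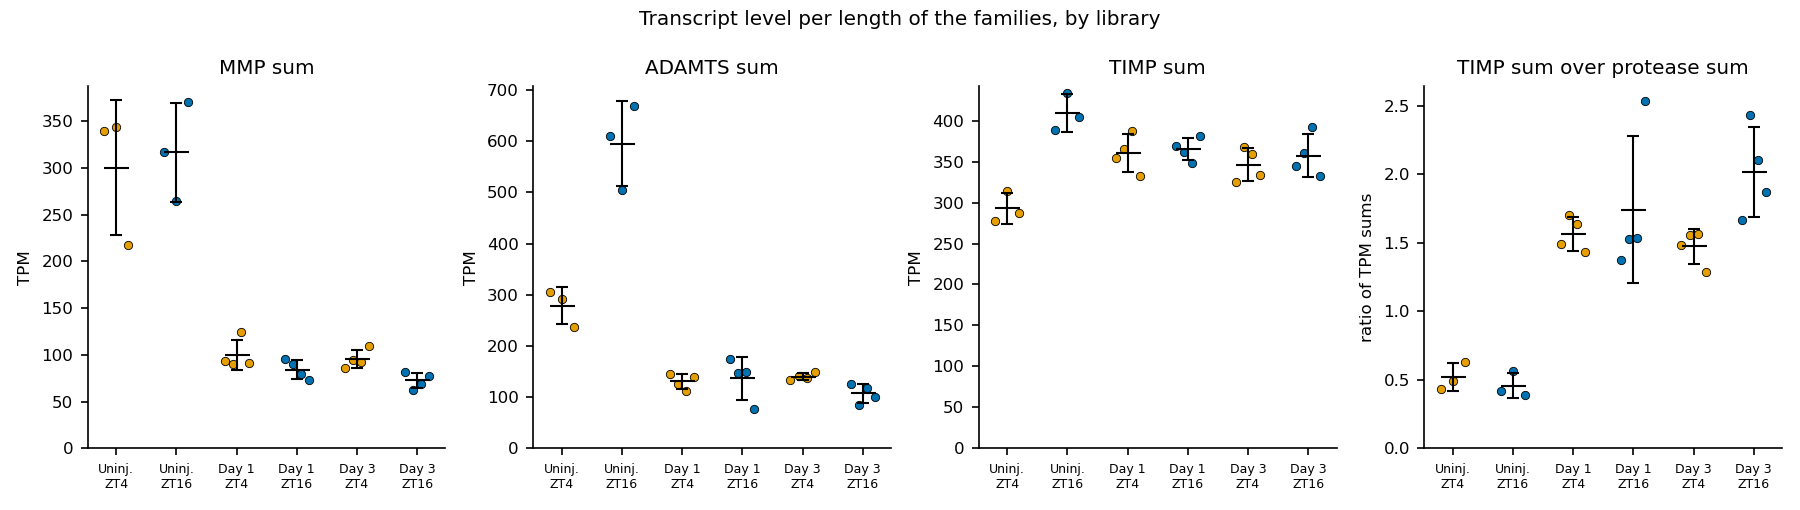
Summed TPM of the MMP, ADAMTS and TIMP genes and the ratio of the TIMP sum to the summed proteases, by library (points), with the mean and SD of each group (ZT4 orange, ZT16 blue; n = 3 or 4). The ratio lies at or below 0.631 in the uninjured libraries and at or above 1.29 in the injured ones.

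Between uninjured and day-1 cells, 25 of the 30 tested members passed the threshold, 10 higher and 15 lower at day 1. In this comparison 75.2% of all genes tested passed, 34.6% higher and 40.6% lower, so that a call by itself sets a member apart from few other genes. At day 3 against uninjured 26 of 30 passed, 13 in each direction, where 76.9% of all genes did (37.9% higher, 39.1% lower). From day 1 to day 3, 24 members passed, 11 higher and 13 lower, where 55.4% of all genes did (26.7% higher, 28.7% lower). The median change of the tested members was -0.62 at day 1, against -0.13 over all genes tested, and -0.42 at day 3, against -0.03. By family, the medians at day 1 and day 3 were 0.79 and 1.34 for MMP, -0.675 and -1.28 for ADAMTS, and -1.24 and -1.88 for TIMP genes. In all, 29 of the 30 tested members passed in at least 1 of the 3 state comparisons, and Adamts12 was the exception. Mmp3, Mmp8, Mmp9 and Mmp12, counted as higher on both days and part of the MMP medians, met the count minimum through injured libraries alone. Adamts6, also counted as higher on both days, met it only with its injured libraries. Mmp23 and Adamts3, counted as higher at day 3, met it only with their day-3 libraries. The positive sign of the MMP medians rests on such genes and is no trait of the family. Of the other MMP genes, Mmp2, Mmp11, Mmp14, Mmp17 and Mmp24 fell at day 1, and Mmp15 and Mmp19 rose. At day 3 Mmp2, Mmp14 and Mmp24 fell, Mmp15 rose, and Mmp11, Mmp17 and Mmp19 did not pass.

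**Figure D2:**
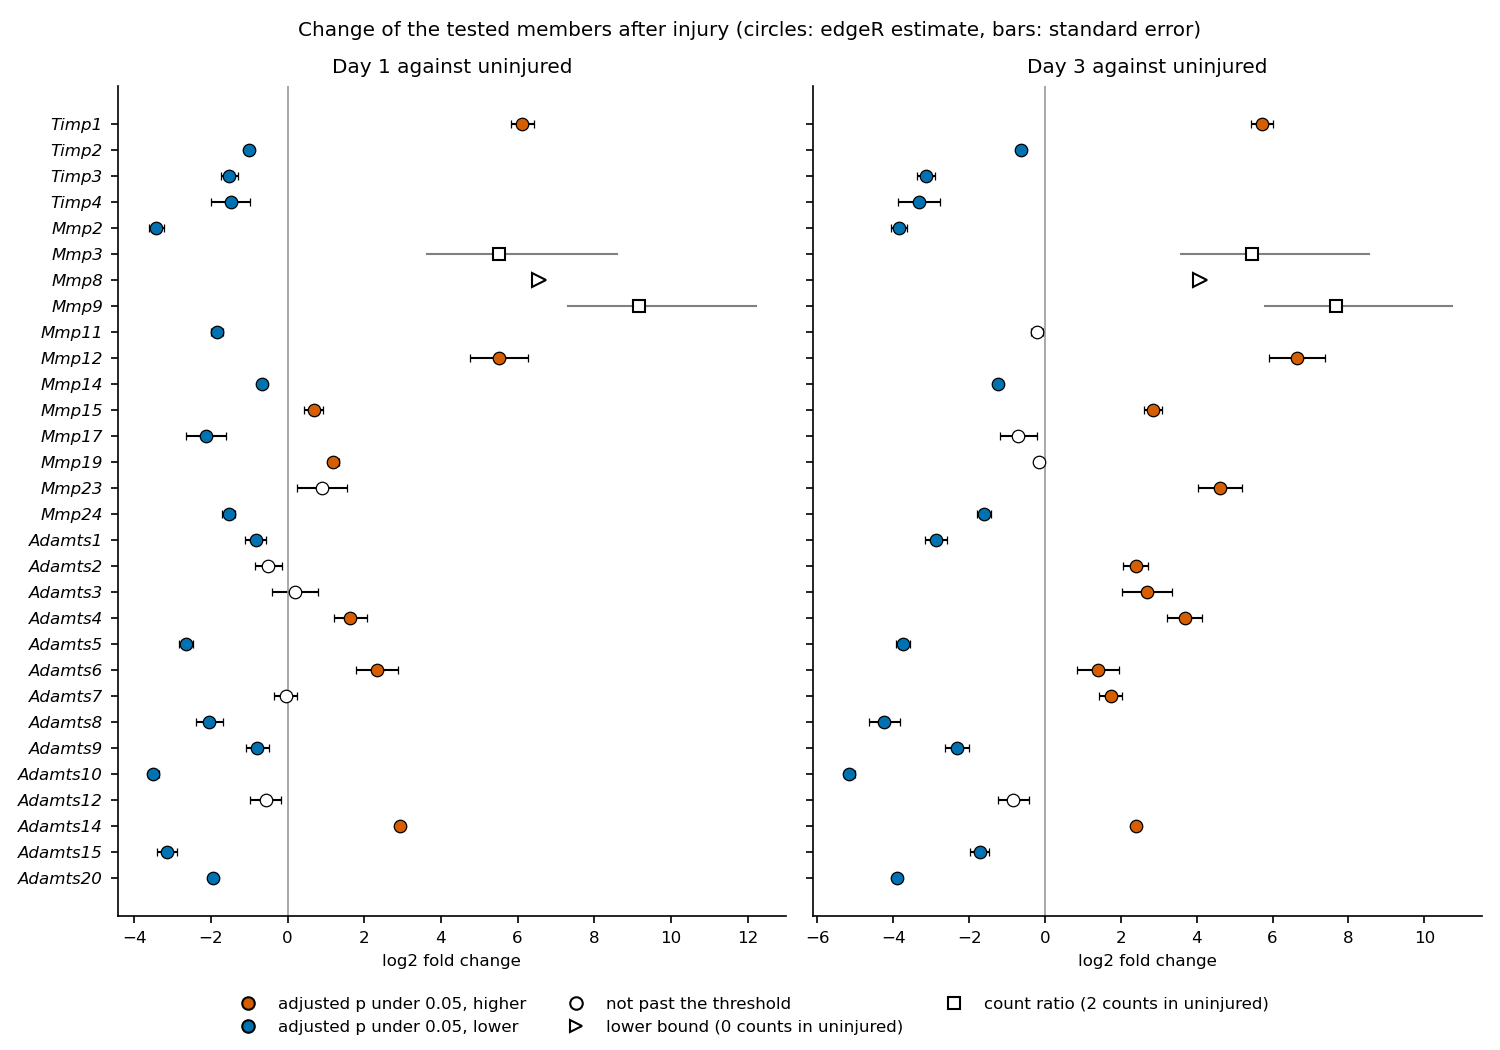
Log2 fold changes of the 30 tested members at day 1 (left) and day 3 (right) against uninjured cells, with standard errors (filled: adjusted p under 0.05). For genes with 0 or 2 counts over all uninjured libraries a lower bound or a ratio with its 95% counting interval is drawn. Timp1 lies to the right of 0 and the other TIMPs to the left on both days.

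Among the inhibitors, Timp1 rose from near 0 while Timp2, Timp3 and Timp4 fell. Timp1 (ENSMUSG00000001131, GRCm38 chromosome X, 20870166 to 20874735, plus strand) encodes a secreted inhibitor of most MMPs and is known as an injury-responsive gene. Timp1 read 1.58, 2.23 and 0.16 CPM at ZT4 and 4.01, 0.428 and 0.568 CPM at ZT16 in uninjured cells. Day-1 libraries gave Timp1 at 106, 110.0, 129.5 and 94.3 CPM (ZT4) and 102, 93.6, 96.5 and 132 CPM (ZT16). Day-3 libraries gave Timp1 at 77.7, 84, 86.6 and 80.2 CPM (ZT4) and 79.6, 100.1, 79.01 and 68.7 CPM (ZT16). Every injured library lay above every uninjured one. The change was log2 6.12 ± 0.29 (adjusted p = 2e-13) at day 1 and log2 5.73 ± 0.29 (adjusted p = 3.75e-13) at day 3. Day 3 against day 1 gave log2 -0.40 ± 0.18 (adjusted p = 0.062), with DESeq2 giving -0.40 and an adjusted p of 0.01, so the direction between the injured days was called by some tools only. Timp1 lies inside Syn1 on the other strand, with no exonic base in common, and Syn1 reached at most 2.36 CPM.

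Timp2 (ENSMUSG00000017466, GRCm38 chromosome 11, 118301069 to 118355740, minus strand) encodes the inhibitor that also bridges MMP14 and pro-MMP2. Timp2 stood at 607, 781 and 711 CPM at ZT4 and 577, 714 and 674 CPM at ZT16 in uninjured cells. At day 1 Timp2 stood at 347, 352, 315 and 340.5 CPM (ZT4) and 342, 375, 366 and 269.6 CPM (ZT16). At day 3 Timp2 stood at 374, 423, 413 and 421 CPM (ZT4) and 409, 446, 565 and 478 CPM (ZT16). Both injured states lay below all uninjured libraries, and day 3 lay higher than day 1 with an overlap of 1 library. Timp2 changed by log2 -1 ± 0.08 (adjusted p = 7.28e-11) at day 1, by log2 -0.62 ± 0.08 (adjusted p = 2.45e-07) at day 3 and by log2 0.38 ± 0.08 (adjusted p = 0.000199) from day 1 to day 3. Its transcript make-up also differed: the share of its TPM assigned to the coding transcript Timp2-202 was 0.0588% in uninjured, 5.04% in day-1 and 18.0 ± 7.68% in day-3 cells (SD, n = 8). For Timp1, the second coding transcript, Timp1-202, took 34.8 ± 9.19% in day-1 and 32.6 ± 6.66% in day-3 cells (SD, n = 8). In uninjured cells, where Timp1 had few counts, it took 49.4% in 1 library and 0% in the other 5. These shares are the authors' estimates and were not tested.

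Timp3 (ENSMUSG00000020044, GRCm38 chromosome 10, 86300372 to 86349506, plus strand) encodes a matrix-bound inhibitor that acts on ADAMTS enzymes as well as on MMPs. Timp3 read 72.6, 65.8 and 197 CPM at ZT4 and 442, 391 and 385 CPM at ZT16 in uninjured cells. Day-1 libraries gave Timp3 at 72.6, 69.1, 55.98 and 61.9 CPM (ZT4) and 128, 89.6, 65 and 58.3 CPM (ZT16). Day-3 libraries gave Timp3 at 25.7, 27.5, 18.9 and 22.96 CPM (ZT4) and 33.2, 22.1, 24.1 and 18.7 CPM (ZT16). The ZT16 uninjured libraries were the highest, day 1 overlapped the ZT4 uninjured ones, and day 3 lay below all others. Timp3 changed by log2 -1.52 ± 0.22 (adjusted p = 6.73e-06) at day 1 and by log2 -3.13 ± 0.24 (adjusted p = 7.11e-10) at day 3. Timp3 sits inside Syn3 on the opposite strand and shares 1733 exonic bases with it. Syn3 was listed at 24.3, 25.6 and 68.9 CPM at ZT4 and 144.7, 126 and 119 CPM at ZT16 in uninjured cells, in the same order of groups as Timp3. The strand used in counting is not given in the sources used here, so the reads of the pair cannot be told apart.

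Timp4, the fourth inhibitor, was the lowest of the 4 after injury. In uninjured cells it was low, as Timp1 was (4.81 ± 3.69 TPM for Timp4 and 3.11 ± 2.97 TPM for Timp1, SD, n = 6). Timp4 stood at 1.35, 1.49 and 6.09 CPM at ZT4 and 6.73, 8.71 and 1.7 CPM at ZT16 in uninjured cells. At day 1 Timp4 stood at 1.91, 0.316, 0.155 and 0.965 CPM (ZT4) and 0.91, 1.93, 2.54 and 4.43 CPM (ZT16). At day 3 Timp4 stood at 0.314, 0.417, 0.297 and 1.05 CPM (ZT4) and 0.103, 0.473, 0.32 and 0.302 CPM (ZT16). The day-1 values overlapped the uninjured ones and the day-3 values lay below them. Timp4 changed by log2 -1.48 ± 0.50 (adjusted p = 0.01) at day 1 and by log2 -3.32 ± 0.56 (adjusted p = 9.23e-06) at day 3. The day-1 call was lost without uninjured ZT4 replicate 3 (log2 -0.95, adjusted p = 0.0931) or uninjured ZT16 replicate 2 (log2 -1.16, adjusted p = 0.0569). Timp4 lies inside Syn2 on the other strand, with 90 exonic bases in common, and Syn2 reached 10.4 CPM.

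The gelatinases, which cut denatured collagen and collagen IV, went in opposite directions. Mmp2 (ENSMUSG00000031740, GRCm38 chromosome 8, 92827291 to 92853420, plus strand), a constitutive gelatinase, was the most abundant MMP per length in uninjured cells. Mmp2 read 456, 529 and 373 CPM at ZT4 and 478, 370.5 and 564 CPM at ZT16 in uninjured cells. Day-1 libraries gave Mmp2 at 37.5, 32.7, 53.6 and 34.2 CPM (ZT4) and 53.2, 55.5, 58.02 and 21.5 CPM (ZT16). Day-3 libraries gave Mmp2 at 29.03, 38.8, 32.7 and 46.05 CPM (ZT4) and 33.2, 32.02, 27.03 and 18.6 CPM (ZT16). All injured libraries lay under all uninjured ones with a wide gap. Mmp2 changed by log2 -3.42 ± 0.20 (adjusted p = 1.42e-11) at day 1 and by log2 -3.85 ± 0.21 (adjusted p = 2.41e-12) at day 3. The difference between the injured days was log2 -0.43 ± 0.19 (adjusted p = 0.0602), and was called in some other fits only. DESeq2 gave log2 -0.44 (adjusted p = 0.0231) and limma voom log2 -0.47 (adjusted p = 0.0147). Without day-1 ZT16 replicate 4, the library with the lowest day-1 value, edgeR gave log2 -0.55 (adjusted p = 0.00235). Summed fibro-adipogenic markers (11 genes, all detected in each group) were also lower after injury, at 2943 to 3887 CPM in uninjured, 592 to 1142 CPM in day-1 and 450 to 810 CPM in day-3 libraries, and their part in the result was not tested. Gene by gene the list did not follow that sum. At day 1, 3 of the 11 rose and 5 fell (median log2 change -0.52), against 34.6% and 40.6% of all genes tested. At day 3, 7 fibro-adipogenic markers rose and 2 fell (median 1.90), against 37.9% and 39.1% of all genes tested. Pdgfra, which defines those cells, was at 0 to 4.12 CPM in uninjured and at 7.53 to 28.7 CPM in day-3 libraries. Mural markers (9 genes, all detected in each group) also summed higher in uninjured (794.5 to 1606 CPM) than in injured libraries (294 to 493 CPM).

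Mmp9 (ENSMUSG00000017737, GRCm38 chromosome 2, 164940780 to 164955850, plus strand), the inducible gelatinase, had 2 counts over all uninjured libraries. Mmp9 stood at 0, 0.247 and 0 CPM at ZT4 and 0, 0 and 0 CPM at ZT16 in uninjured cells. At day 1 Mmp9 stood at 38.7, 23.7, 72.2 and 19.7 CPM (ZT4) and 15.02, 17.1, 5.71 and 21.5 CPM (ZT16). At day 3 Mmp9 stood at 11.3, 12.1, 11.9 and 13.2 CPM (ZT4) and 6.16, 7.09, 5.44 and 7.39 CPM (ZT16). Every injured library lay above the uninjured ones, the 3 highest values were in day-1 ZT4 libraries, and the injured days overlapped. Counts were summed per state and divided by the summed TMM-scaled library sizes. The ratio to uninjured cells was 573 at day 1 (exact 95% counting interval 158 to 4736) and 203 at day 3 (56.0 to 1684). Mmp9 passed with adjusted p = 1.91e-11 and 8.33e-10, and fell from day 1 to day 3 (log2 -1.42 ± 0.27, adjusted p = 0.000125). Like Mmp3, Mmp8 and Mmp12, Mmp9 met the count minimum through injured libraries alone, so that it was higher there follows from the filter.

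Of the chromosome 9 group, Mmp8 encodes the collagenase stored by neutrophils, Mmp12 the elastase of macrophages and Mmp3 stromelysin-1, which also activates other pro-MMPs. Mmp8 had no count in any uninjured library. Day-1 libraries gave Mmp8 at 11.9, 6.15, 12.9 and 5.38 CPM (ZT4) and 2.58, 4.12, 2.29 and 6.37 CPM (ZT16). Day-3 libraries gave Mmp8 at 2.04, 1.25, 0.891 and 0.262 CPM (ZT4) and 1.33, 1.54, 1.12 and 0.755 CPM (ZT16). The highest values were at day-1 ZT4, with all 8 day-1 values above all 8 day-3 values. Set against 3 counts over the uninjured group, Mmp8 was at least 93.6-fold higher at day 1 (adjusted p = 2.63e-09) and at least 17.0-fold higher at day 3 (adjusted p = 1.95e-06), and it fell from day 1 to day 3 (log2 -2.35 ± 0.37, adjusted p = 1.95e-05).

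Mmp12 had 4 counts in uninjured cells, all in 1 library. Mmp12 read 0, 0.495 and 0 CPM at ZT4 and 0, 0 and 0 CPM at ZT16 in uninjured cells. At day 1 Mmp12 stood at 2.46, 2.52, 6.84 and 3.86 CPM (ZT4) and 0.152, 1.67, 1.9 and 3.05 CPM (ZT16). At day 3 Mmp12 stood at 5.34, 5.56, 5.35 and 7.48 CPM (ZT4) and 6.26, 4.73, 5.28 and 5.43 CPM (ZT16). The day-3 libraries were uniformly high, while day-1 ZT16 replicate 1 stayed within the uninjured range. Mmp12 changed by log2 5.51 ± 0.76 (adjusted p = 8.95e-07) at day 1, log2 6.64 ± 0.73 (adjusted p = 2.03e-08) at day 3 and log2 1.13 ± 0.38 (adjusted p = 0.0155) from day 1 to day 3. Mmp3 was rarer, at 0 to 0.284 CPM in uninjured, 0.607 to 6.37 CPM in day-1 and 0.453 to 4.2 CPM in day-3 libraries, a ratio of 45.9 (12.4 to 384) at day 1 and 44.2 (11.97 to 369) at day 3. Mmp13, a collagenase with too few counts for a test, had 0 counts in uninjured, 1 in day-1 and 39 in day-3 cells, at least 9.74-fold higher at day 3 than in uninjured cells.

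Marker sums of neutrophils and macrophages were higher at day 1 than in uninjured cells, as Mmp8, Mmp9 and Mmp12 were. Of these genes only Mmp8 and Mmp9 also fell from day 1 to day 3, as the sums did. Summed neutrophil markers (10 genes, of which Ly6g, Camp and Ngp were at 0 in every day-1 library) were at most 3.46 CPM in uninjured, 62.5 to 236 CPM in day-1 ZT4, 23.6 to 62.6 CPM in day-1 ZT16 and at most 5.49 CPM in day-3 libraries. Mmp8 and Mmp9 had their highest values, 12.9 and 72.2 CPM, in day-1 ZT4 replicate 3, the library with the highest neutrophil sum (236 CPM) and the highest macrophage and monocyte sum (3982 CPM). Mmp12 was higher at day 3 than at day 1, while both marker sums were lower. The part of these cells in the results was not tested.

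**Figure D3:**
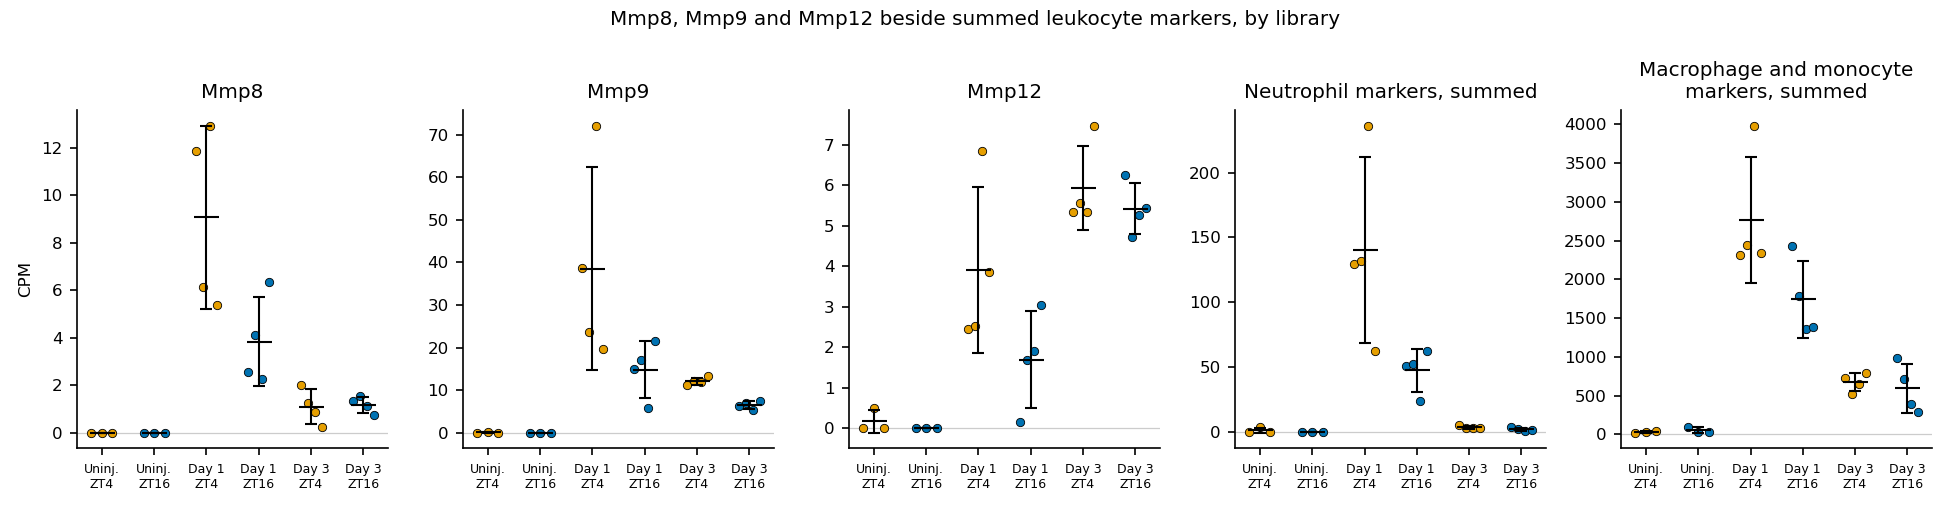
CPM of Mmp8, Mmp9 and Mmp12 and the summed CPM of neutrophil and of macrophage and monocyte markers, by library (points), with the mean and SD of each group (ZT4 orange, ZT16 blue; n = 3 or 4). Mmp8 and Mmp9 peak in the day-1 ZT4 group, as the marker sums do, whereas Mmp12 is at 4.73 to 7.48 CPM in the day-3 libraries.

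The membrane-type MMPs, which stay anchored at the cell surface, split. Mmp14 (ENSMUSG00000000957, GRCm38 chromosome 14, 54431612 to 54445364, plus strand), the main activator of pro-MMP2, fell in steps. Mmp14 stood at 118, 129 and 83.2 CPM at ZT4 and 93.6, 76.8 and 90.5 CPM at ZT16 in uninjured cells. Day-1 libraries gave Mmp14 at 55.5, 62.3, 66.7 and 64.5 CPM (ZT4) and 72.2, 56.9, 56.6 and 56.2 CPM (ZT16). Day-3 libraries gave Mmp14 at 42.4, 49.1, 47.97 and 59.3 CPM (ZT4) and 32.9, 31.5, 36.6 and 37.6 CPM (ZT16). Day-1 values lay below the uninjured ones, and all but 1 of the day-3 libraries lay below day 1. Mmp14 changed by log2 -0.68 ± 0.10 (adjusted p = 1.28e-06), log2 -1.24 ± 0.10 (adjusted p = 3.75e-11) and log2 -0.56 ± 0.09 (adjusted p = 1.77e-05) in day 1 against uninjured, day 3 against uninjured and day 3 against day 1. Mmp15, a second transmembrane member, went the other way. Mmp15 read 2.26, 2.97 and 3.69 CPM at ZT4 and 3.01, 0.714 and 2.27 CPM at ZT16 in uninjured cells. At day 1 Mmp15 stood at 3.27, 4.42, 2.18 and 3.17 CPM (ZT4) and 3.79, 6.31, 3.43 and 5.12 CPM (ZT16). At day 3 Mmp15 stood at 16.3, 17.4, 17.5 and 14.3 CPM (ZT4) and 21.8, 17.2, 16.6 and 19.5 CPM (ZT16). Its day-3 libraries lay above all others, and day 1 overlapped uninjured. Mmp15 changed by log2 0.68 ± 0.25 (adjusted p = 0.0162) at day 1 and by log2 2.85 ± 0.25 (adjusted p = 1.43e-10) at day 3, and the day-1 call was lost with limma voom (log2 0.70, adjusted p = 0.054).

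Mmp24, a membrane-type enzyme described mainly in neural tissue, was moderate in uninjured cells. Mmp24 stood at 17.4, 22.9 and 27.7 CPM at ZT4 and 20.8, 22.99 and 11.5 CPM at ZT16 in uninjured cells. Day-1 libraries gave Mmp24 at 7.23, 8.21, 7.62 and 6.89 CPM (ZT4) and 8.19, 6.05, 6.6 and 5.68 CPM (ZT16). Day-3 libraries gave Mmp24 at 8.004, 8.34, 5.2 and 5.64 CPM (ZT4) and 7.49, 6.26, 5.76 and 6.79 CPM (ZT16). All injured libraries lay under the uninjured ones and the injured days overlapped. Mmp24 changed by log2 -1.53 ± 0.18 (adjusted p = 2.96e-08) at day 1 and by log2 -1.61 ± 0.18 (adjusted p = 1.2e-08) at day 3, with log2 -0.07 ± 0.17 (adjusted p = 0.742) between them. It shares 637 exonic bases with BC029722, which reached 67.9 CPM. Mmp17, anchored by a lipid, was at 0.903 to 5.43 CPM in uninjured and 0.136 to 1.65 CPM in day-1 libraries and fell at day 1 (log2 -2.14 ± 0.52, adjusted p = 0.000712). Mmp16 and Mmp25 were too low for a test. Mmp16 had 8 counts in uninjured, 1 in day-1 and 56 in day-3 cells, all 8 in uninjured ZT16 replicate 2.

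The remaining MMPs followed patterns of their own. Mmp11, stromelysin-3, is activated inside the cell by furin. Mmp11 read 29.8, 28.96 and 24.5 CPM at ZT4 and 14.04, 12 and 18.3 CPM at ZT16 in uninjured cells. At day 1 Mmp11 stood at 4.36, 5.68, 6.69 and 5.1 CPM (ZT4) and 7.74, 4.25, 5.84 and 5.54 CPM (ZT16). At day 3 Mmp11 stood at 15.2, 15.6, 20.6 and 17.8 CPM (ZT4) and 18.2, 16.4, 15.2 and 21.1 CPM (ZT16). The day-1 libraries lay below all others, and day 3 lay within the uninjured range. Mmp11 changed by log2 -1.85 ± 0.16 (adjusted p = 1.24e-10) at day 1, by log2 1.64 ± 0.15 (adjusted p = 1.47e-09) from day 1 to day 3 and by log2 -0.21 ± 0.15 (adjusted p = 0.201) at day 3 against uninjured. It shares 155 exonic bases with Chchd10, which reached 66.6 CPM. Mmp19, a basement membrane protease, did the reverse. Mmp19 stood at 15.8, 12 and 10.3 CPM at ZT4 and 15.3, 14.7 and 19.6 CPM at ZT16 in uninjured cells. Day-1 libraries gave Mmp19 at 32.2, 48.5, 50.2 and 46.3 CPM (ZT4) and 29.4, 27.9, 21.8 and 20.9 CPM (ZT16). Day-3 libraries gave Mmp19 at 11.9, 15.7, 13.4 and 14.2 CPM (ZT4) and 13.2, 11.3, 10.9 and 13.6 CPM (ZT16). The 8 day-1 libraries lay above all uninjured and day-3 libraries. Mmp19 changed by log2 1.20 ± 0.14 (adjusted p = 3.51e-08) at day 1 and by log2 -1.35 ± 0.13 (adjusted p = 2.93e-09) from day 1 to day 3, and stood at log2 -0.16 ± 0.14 (adjusted p = 0.308) at day 3. The macrophage and monocyte sum above was also highest at day 1, and its part in the result was not tested. Mmp19 shares 789 exonic bases with Tmem198b (at most 30.2 CPM).

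Mmp23, a small MMP with a membrane anchor, was found almost only at day 3. Mmp23 read 0.452, 0 and 0 CPM at ZT4 and 0.43, 0.428 and 0.284 CPM at ZT16 in uninjured cells. At day 1 Mmp23 stood at 0, 0, 0.622 and 1.38 CPM (ZT4) and 0.455, 0.386, 0.635 and 0.415 CPM (ZT16). At day 3 Mmp23 stood at 4.39, 6.67, 8.17 and 9.71 CPM (ZT4) and 6.06, 4.96, 6.88 and 6.64 CPM (ZT16). The lowest day-3 library lay above the highest of the other states. Mmp23 changed by log2 4.62 ± 0.58 (adjusted p = 1.02e-07) at day 3 and by log2 3.72 ± 0.47 (adjusted p = 3.63e-07) from day 1 to day 3. Mmp23 met the count minimum through day-3 libraries alone, so that it was higher there follows from the filter. Day 1 against uninjured gave log2 0.90 ± 0.66 (adjusted p = 0.215), and a call without uninjured ZT4 replicate 1 (log2 2.68, adjusted p = 0.0155). Mmp10, Mmp20, Mmp21, Mmp27 and Mmp28 stayed at or below 1.11 CPM in every library.

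**Figure D4:**
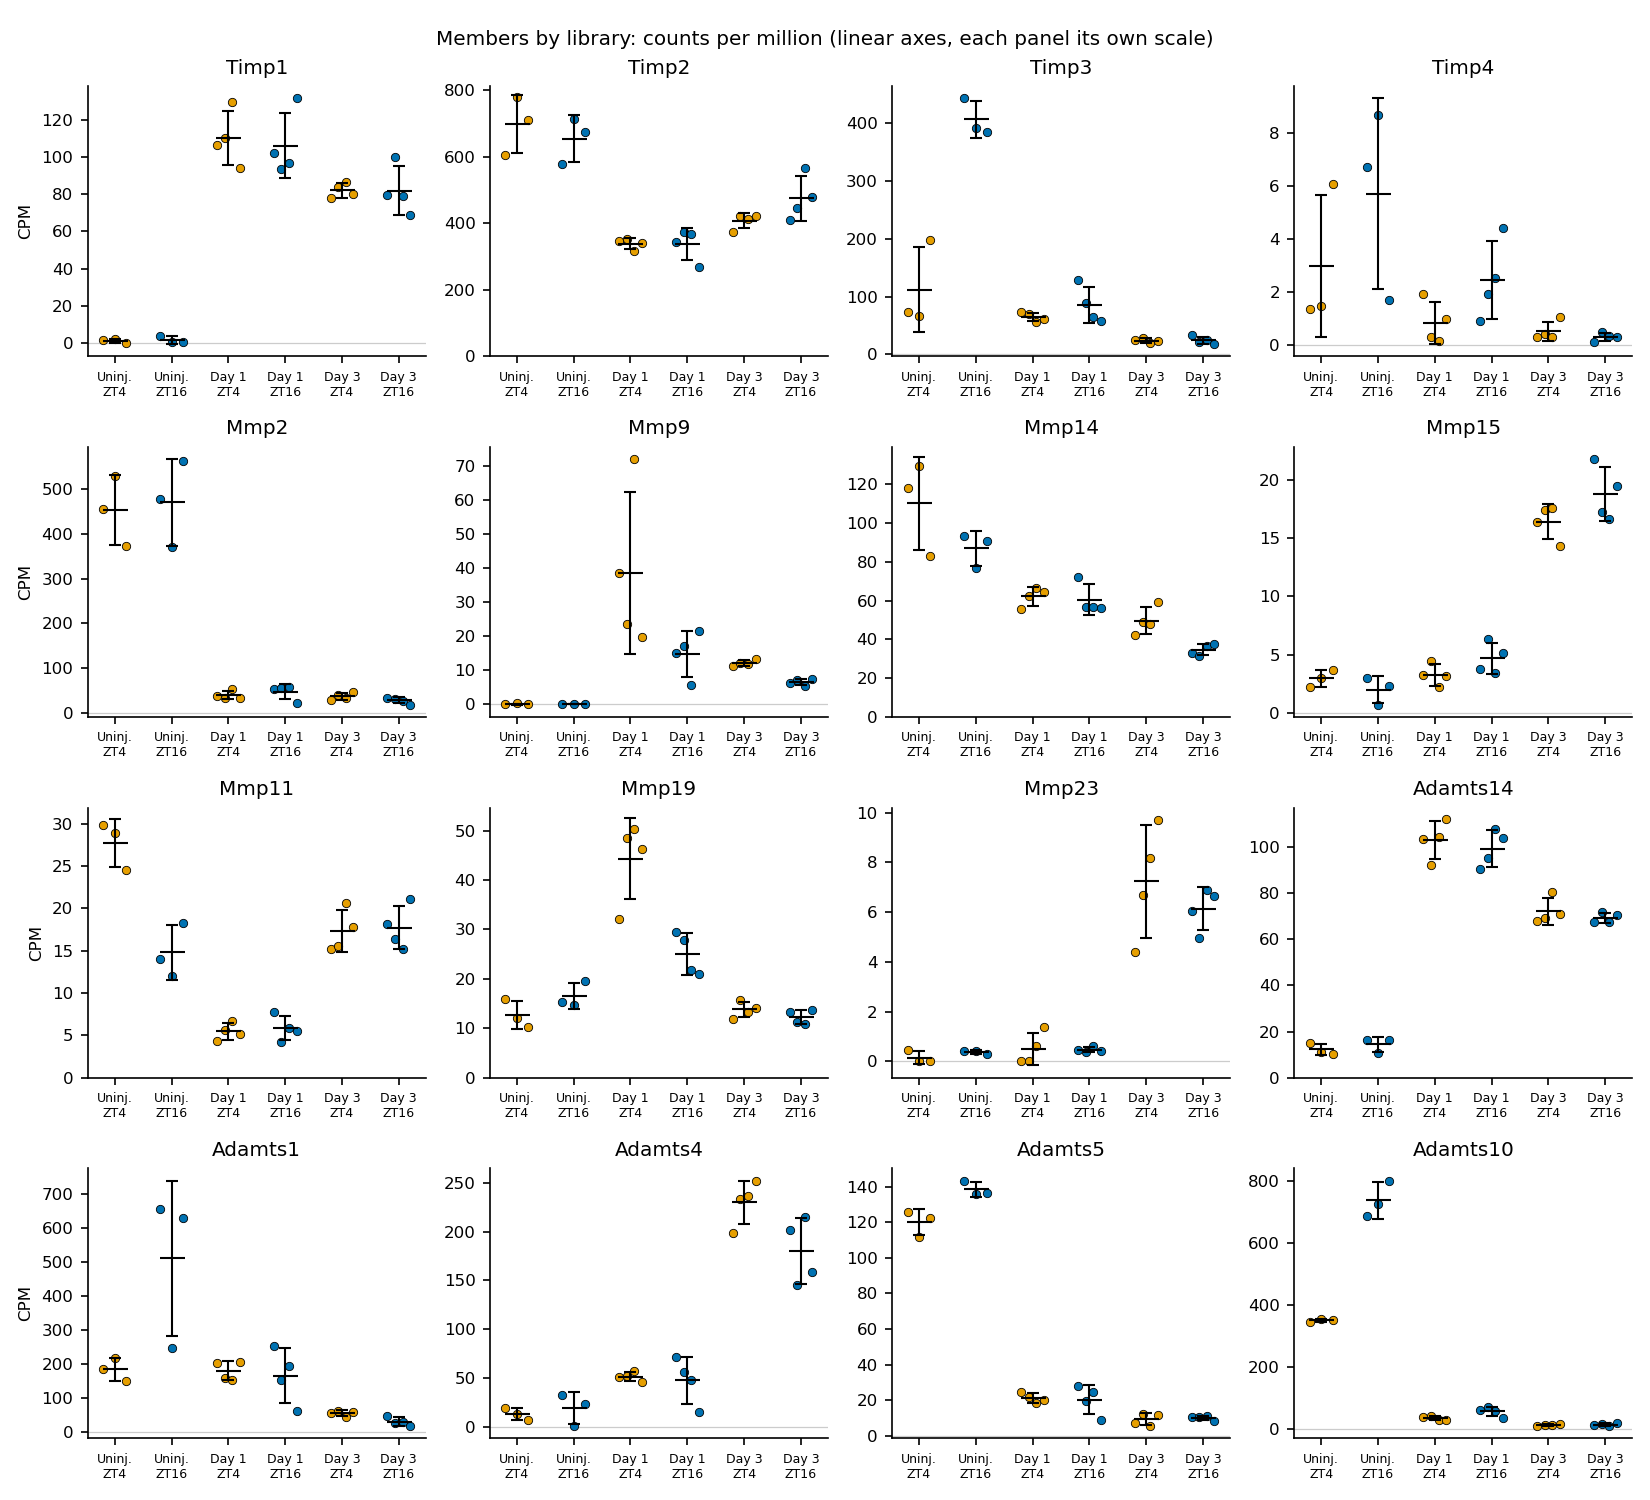
CPM of 16 members by library (points), with the mean and SD of each group (ZT4 orange, ZT16 blue; n = 3 or 4; each panel has its own linear axis). Timp1, Mmp9 and Adamts14 are high at day 1, Mmp15, Mmp23 and Adamts4 at day 3, and Mmp2, Adamts5 and Adamts10 in the uninjured libraries.

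Among the ADAMTS proteases, those that remove the N-terminal propeptide of fibrillar procollagens (ADAMTS2, ADAMTS3 and ADAMTS14) passed against uninjured cells on at least 1 day, and each was higher there after injury. Adamts14 (ENSMUSG00000059901, GRCm38 chromosome 10, 61197112 to 61273438, minus strand) was highest at day 1. Adamts14 stood at 15.1, 11.1 and 10.4 CPM at ZT4 and 16.5, 10.7 and 16.2 CPM at ZT16 in uninjured cells. Day-1 libraries gave Adamts14 at 104, 92.3, 104 and 112 CPM (ZT4) and 90.4, 95.2, 108 and 104 CPM (ZT16). Day-3 libraries gave Adamts14 at 68.1, 69.1, 80.8 and 70.98 CPM (ZT4) and 67.7, 71.8, 67.5 and 70.8 CPM (ZT16). The 3 states did not overlap, and day 1 was the highest. Adamts14 changed by log2 2.92 ± 0.11 (adjusted p = 3.09e-17) at day 1, log2 2.41 ± 0.10 (adjusted p = 2.5e-16) at day 3 and log2 -0.52 ± 0.08 (adjusted p = 1.27e-05) from day 1 to day 3. Its leading transcript, Adamts14-201, held 98.8% of its TPM in uninjured and 98.95% in day-1 and day-3 cells.

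Adamts2 rose later. Adamts2 read 3.84, 3.22 and 9.94 CPM at ZT4 and 2.72, 1.86 and 2.56 CPM at ZT16 in uninjured cells. At day 1 Adamts2 stood at 1.91, 3.16, 6.53 and 2.34 CPM (ZT4) and 3.19, 0.772, 2.92 and 0.831 CPM (ZT16). At day 3 Adamts2 stood at 15.1, 21.1, 18.3 and 30.96 CPM (ZT4) and 19.4, 13.7, 20.1 and 15.4 CPM (ZT16). All day-3 libraries lay above all others, and day 1 overlapped uninjured. Adamts2 changed by log2 2.39 ± 0.33 (adjusted p = 5.24e-07) at day 3 and log2 2.89 ± 0.31 (adjusted p = 2.24e-08) from day 1 to day 3, with log2 -0.50 ± 0.35 (adjusted p = 0.196) at day 1. Tenocyte markers (6 genes) summed higher at day 3 as Adamts2 did, with 22.8 to 74.4 CPM in uninjured, 23.6 to 40.6 CPM in day-1 and 92.5 to 145 CPM in day-3 libraries. Of the 6, 2 rose, 1 fell and 3 did not pass at day 3 against uninjured, where 37.9% of all genes tested rose and 39.1% fell. The part of these markers in the result was not tested. Adamts3 stayed at or below 3.61 CPM, and rose at day 3 by log2 2.69 ± 0.66 (adjusted p = 0.000754). It met the count minimum only with its day-3 libraries, so that it was higher there follows in part from the filter.

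The ADAMTS enzymes that cleave versican, aggrecan and other large proteoglycans split, with Adamts4 higher and Adamts1, Adamts5, Adamts8, Adamts9, Adamts15 and Adamts20 lower after injury. Adamts4 (ENSMUSG00000006403, GRCm38 chromosome 1, 171250421 to 171260637, plus strand) encodes aggrecanase-1. Adamts4 stood at 19.1, 12.8 and 7.05 CPM at ZT4 and 32.8, 0.714 and 23.4 CPM at ZT16 in uninjured cells. Day-1 libraries gave Adamts4 at 51.01, 51.8, 56.9 and 45.4 CPM (ZT4) and 71.9, 55.9, 47.9 and 14.9 CPM (ZT16). Day-3 libraries gave Adamts4 at 198, 233, 236 and 251 CPM (ZT4) and 201, 145, 215 and 158 CPM (ZT16). Day-3 libraries lay far above the rest, and day-1 ZT16 replicate 4 lay within the uninjured range. Adamts4 changed by log2 1.64 ± 0.43 (adjusted p = 0.00265) at day 1, log2 3.68 ± 0.46 (adjusted p = 1.17e-06) at day 3 and log2 2.04 ± 0.37 (adjusted p = 0.000174) from day 1 to day 3. Adamts4-202 held 71.2 ± 36.1% of its TPM in uninjured cells (SD, n = 6), with single libraries from 0% to 100%. Its mean shares of 95% in day-1 and 95.8% in day-3 cells lay within that range, and a shift was not tested.

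Adamts5 (ENSMUSG00000022894, GRCm38 chromosome 16, 85856173 to 85901828, minus strand), aggrecanase-2, fell. Adamts5 read 126, 112 and 123 CPM at ZT4 and 144, 136 and 136 CPM at ZT16 in uninjured cells. At day 1 Adamts5 stood at 24.6, 21.8, 18.04 and 19.9 CPM (ZT4) and 27.9, 19.3, 24.4 and 9 CPM (ZT16). At day 3 Adamts5 stood at 7.06, 12.4, 5.35 and 11.7 CPM (ZT4) and 10.5, 10.6, 10.7 and 8.45 CPM (ZT16). The uninjured libraries lay well above all injured ones. Adamts5 changed by log2 -2.65 ± 0.17 (adjusted p = 4.77e-12) at day 1, log2 -3.74 ± 0.19 (adjusted p = 1.99e-14) at day 3 and log2 -1.10 ± 0.18 (adjusted p = 1.83e-05) between the injured days. Adamts1 (ENSMUSG00000022893, GRCm38 chromosome 16, 85793827 to 85803113, minus strand), also a versicanase, was the most abundant of this set per length in uninjured cells. Adamts1 stood at 187, 219 and 149.8 CPM at ZT4 and 656, 248 and 632 CPM at ZT16 in uninjured cells. Day-1 libraries gave Adamts1 at 204, 161, 152 and 208 CPM (ZT4) and 254, 155, 196 and 61.9 CPM (ZT16). Day-3 libraries gave Adamts1 at 58.1, 62.4, 44.1 and 59.4 CPM (ZT4) and 48.7, 27.4, 31.2 and 18.3 CPM (ZT16). Uninjured ZT16 replicates 1 and 3 were the highest, the other uninjured libraries overlapped day 1, and day 3 was low. Adamts1 changed by log2 -0.82 ± 0.28 (adjusted p = 0.0121) at day 1 and log2 -2.87 ± 0.29 (adjusted p = 6.93e-08) at day 3. Without those 2 uninjured libraries, the day-1 change was -0.17 (adjusted p = 0.665).

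Adamts15, another versicanase, was lowest at day 1. Adamts15 read 37.9, 29.7 and 37.3 CPM at ZT4 and 50.01, 28.3 and 52.7 CPM at ZT16 in uninjured cells. At day 1 Adamts15 stood at 5.32, 4.26, 3.27 and 5.24 CPM (ZT4) and 6.98, 5.66, 3.81 and 0.692 CPM (ZT16). At day 3 Adamts15 stood at 11.3, 15.99, 10.2 and 13.6 CPM (ZT4) and 12.2, 7.8, 14.2 and 9.51 CPM (ZT16). The 3 states did not overlap. Adamts15 changed by log2 -3.15 ± 0.26 (adjusted p = 1.62e-10) at day 1, log2 -1.72 ± 0.24 (adjusted p = 8.6e-07) at day 3 and log2 1.42 ± 0.25 (adjusted p = 4.72e-05) from day 1 to day 3. Adamts20 fell at each step. Adamts20 stood at 60.98, 73.8 and 65.7 CPM at ZT4 and 108, 124 and 109.7 CPM at ZT16 in uninjured cells. Day-1 libraries gave Adamts20 at 22.6, 18.3, 20.1 and 18.6 CPM (ZT4) and 28.4, 24.1, 30.5 and 19.1 CPM (ZT16). Day-3 libraries gave Adamts20 at 4.08, 6.4, 5.05 and 6.69 CPM (ZT4) and 5.95, 6.73, 5.76 and 5.89 CPM (ZT16). Here too the states did not overlap, and the uninjured ZT16 libraries were the highest. Adamts20 changed by log2 -1.95 ± 0.11 (adjusted p = 5.51e-14), log2 -3.90 ± 0.12 (adjusted p = 1.1e-18) and log2 -1.95 ± 0.12 (adjusted p = 9.43e-13) in day 1 against uninjured, day 3 against uninjured and day 3 against day 1. Most of the TPM of this gene was assigned to Adamts20-203, a transcript annotated as a retained intron and not as coding, at 75.9 ± 8.83% in uninjured cells (SD, n = 6), 81.7% at day 1 and 82.7% at day 3.

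Adamts8 and Adamts9 were lower in level. Adamts8 read 23.1, 15.2 and 12.2 CPM at ZT4 and 18.1, 6.998 and 27.96 CPM at ZT16 in uninjured cells. At day 1 Adamts8 stood at 4.23, 4.1, 2.18 and 7.31 CPM (ZT4) and 7.28, 1.93, 3.81 and 2.77 CPM (ZT16). At day 3 Adamts8 stood at 0.942, 1.81, 0.297 and 1.31 CPM (ZT4) and 1.23, 1.06, 0.16 and 0.302 CPM (ZT16). For Adamts8 day 1 overlapped the uninjured range and day 3 lay below all others, and it changed by log2 -2.04 ± 0.36 (adjusted p = 1.75e-05) at day 1 and log2 -4.23 ± 0.41 (adjusted p = 1.58e-09) at day 3. Adamts9 stood at 11.2, 15.5 and 5.45 CPM at ZT4 and 12.5, 11.8 and 10.6 CPM at ZT16 in uninjured cells. Day-1 libraries gave Adamts9 at 8.46, 8.21, 3.27 and 6.2 CPM (ZT4) and 6.67, 6.18, 8.38 and 4.43 CPM (ZT16). Day-3 libraries gave Adamts9 at 4.71, 3.89, 0.743 and 2.62 CPM (ZT4) and 1.03, 2.36, 1.6 and 1.66 CPM (ZT16). For Adamts9 the uninjured and day-1 values overlapped, and it changed by log2 -0.79 ± 0.29 (adjusted p = 0.0182) at day 1 and log2 -2.32 ± 0.31 (adjusted p = 3.14e-07) at day 3. Its day-1 call was lost without uninjured ZT4 replicate 1 (log2 -0.66, adjusted p = 0.062), ZT4 replicate 2 (-0.59, 0.0855), ZT16 replicate 2 (-0.67, 0.0599) or ZT16 replicates 1 and 3 together (-0.67, 0.112). Adamts9 shares 1381 exonic bases with A730049H05Rik (at most 4.24 CPM). Of the 9 mural markers whose sum is given beside Mmp2, 7 fell and none rose at day 1, and 7 fell and 1 rose at day 3. Over all genes tested, 40.6% fell and 34.6% rose at day 1, and 39.1% fell and 37.9% rose at day 3. The part of the mural markers in the falls of Adamts8 and Adamts9 was not tested.

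Of the enzymes tied to microfibrils and cartilage matrix, Adamts10 fell and Adamts7 rose. Adamts10 (ENSMUSG00000024299, GRCm38 chromosome 17, 33524204 to 33553782, plus strand), which binds fibrillin-1, had the highest summed TPM of the ADAMTS genes in uninjured cells. Its coding transcript, Adamts10-201, held 4.83 ± 2.38% of that sum (SD, n = 6), or 10.8 TPM, and most of the rest was assigned to transcripts annotated as nonsense-mediated decay or retained intron. The coding transcript Adamts1-201 stood at 102 TPM. Adamts10 read 346, 356 and 352 CPM at ZT4 and 686, 726 and 801 CPM at ZT16 in uninjured cells. At day 1 Adamts10 stood at 40.6, 42.1, 28.9 and 29.5 CPM (ZT4) and 62.5, 71.3, 58.5 and 36.6 CPM (ZT16). At day 3 Adamts10 stood at 11.1, 13.6, 12.5 and 16.4 CPM (ZT4) and 14.3, 15.8, 10.2 and 20.4 CPM (ZT16). The states did not overlap, and the uninjured ZT16 libraries had the highest values. Adamts10 changed by log2 -3.50 ± 0.14 (adjusted p = 1.13e-15) at day 1 and log2 -5.15 ± 0.15 (adjusted p = 5.41e-18) at day 3, the largest fall of any tested member on both days. Adamts7, which cleaves the cartilage protein COMP, was higher at day 3. Adamts7 stood at 7.79, 12.2 and 1.76 CPM at ZT4 and 8.02, 2.71 and 5.39 CPM at ZT16 in uninjured cells. Day-1 libraries gave Adamts7 at 6.001, 3.31, 4.82 and 5.38 CPM (ZT4) and 10.3, 8.62, 4.32 and 7.06 CPM (ZT16). Day-3 libraries gave Adamts7 at 15.1, 22.5, 19.9 and 23.6 CPM (ZT4) and 21.2, 13.5, 29.3 and 23.5 CPM (ZT16). All day-3 libraries lay above all others. It shares 122 exonic bases with Tbc1d2b (at most 42.5 CPM). Adamts7 changed by log2 1.74 ± 0.30 (adjusted p = 1.76e-05) at day 3 and log2 1.79 ± 0.28 (adjusted p = 7.82e-06) from day 1 to day 3, with log2 -0.05 ± 0.31 (adjusted p = 0.894) at day 1. Adamts6 was at 0 to 3.58 CPM in uninjured, 2.02 to 6.79 CPM in day-1 and 0.64 to 3.61 CPM in day-3 libraries, and rose at day 1 by log2 2.34 ± 0.55 (adjusted p = 0.00056) and at day 3 by log2 1.40 ± 0.56 (adjusted p = 0.0279). Adamts6 met the count minimum only with its injured libraries, so that it was higher there follows in part from the filter. The day-3 call of Adamts6 was lost without uninjured ZT4 replicate 2 (log2 1.15, adjusted p = 0.0713) or replicate 3 (log2 1.21, adjusted p = 0.0584). Adamts12 stood at 0.236 to 5.42 CPM over all libraries and gave log2 -0.83 ± 0.41 (adjusted p = 0.0677) at day 3. Adamts13, Adamts16, Adamts17, Adamts18 and Adamts19 stayed at or below 1.49 CPM.

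The series bears on the stem cell clock, so each state was compared between the times. In uninjured cells 7 of the 30 tested members passed between ZT16 and ZT4, where 17.7% of all genes did (8.53% higher, 9.12% lower). Of the 7 members, 6 were higher at ZT16 (Adamts1, Adamts3, Adamts6, Adamts10, Adamts20 and Timp3) and 1 was lower (Mmp11). Adamts10 was the clearest, at 346, 356 and 352 CPM at ZT4 and 686, 726 and 801 CPM at ZT16, without overlap (log2 1.07 ± 0.20, adjusted p = 0.000724). Timp3 gave log2 1.87 ± 0.34 (adjusted p = 0.00113), Adamts20 log2 0.77 ± 0.16 (adjusted p = 0.00168) and Mmp11 log2 -0.91 ± 0.23 (adjusted p = 0.00622), with all 3 ZT16 values on one side of all 3 ZT4 values for each. Adamts1 gave log2 1.47 ± 0.43 (adjusted p = 0.0241), Adamts6 log2 3.02 ± 0.91 (adjusted p = 0.0229) and Adamts3 log2 3.33 ± 1.12 (adjusted p = 0.0413). Timp2 gave log2 -0.10 ± 0.13 (adjusted p = 0.657), and Mmp2 log2 0.06 ± 0.29 (adjusted p = 0.931).

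Most of these calls were lost without the 2 libraries that stood apart. Without uninjured ZT16 replicates 1 and 3, which leaves 1 library at ZT16 assumed to vary like the other groups, 1 member, Adamts20, still passed. Under that setting Adamts1 stood at 0.40 (adjusted p = 0.81) and Adamts6 at 0.41 (0.954), while Adamts3 stood at 3.09 (0.239), Adamts10 stood at 1.02 (0.0512), Timp3 at 1.78 (0.0581) and Mmp11 at -1.23 (0.0512). Adamts1 also lost its call without any 1 of uninjured ZT4 replicates 1 and 3 and ZT16 replicates 1 and 3 (log2 1.24 to 1.45, adjusted p 0.0634 to 0.0991). Adamts3 lost its call when ZT4 replicate 2 or 3, or ZT16 replicate 1 or 2, was left out (log2 2.34 to 3.39, adjusted p 0.0536 to 0.25). Adamts6 lost its call when ZT4 replicate 2 or 3, or ZT16 replicate 1, was left out (log2 2.06 to 2.56, adjusted p 0.0719 to 0.191). Adamts20 lost its call when effective transcript length entered the fit (log2 0.47, adjusted p = 0.106). In a fit of the uninjured libraries alone, 2 of the 7 passed. There Mmp11 (adjusted p = 0.063), Timp3 (0.0747) and Adamts1 (0.0623) did not pass, and Adamts3 and Adamts6 had too few counts to be tested.

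After injury, edgeR called no member between the times at either day, where 0% of all genes passed on each day. At an unadjusted p under 0.05 there were 8 of 30 members at day 1, where 6.1% of all genes were, and 4 at day 3, where 6.65% were. DESeq2 called 1 member at day 1 and 0 at day 3 (0.179% and 0.0265% of all genes), and limma voom 2 and 0 (0.312% and 0% of all genes). The member called by both of those tools at day 1 was Mmp19, at 32.2, 48.5, 50.2 and 46.3 CPM at ZT4 and 29.4, 27.9, 21.8 and 20.9 CPM at ZT16, with all ZT4 values above all ZT16 values (log2 -0.82 ± 0.17, adjusted p = 0.228; DESeq2 log2 -0.84, adjusted p = 0.00479). Summed macrophage and monocyte markers were also higher at day-1 ZT4 (2308 to 3982 CPM) than at day-1 ZT16 (1360 to 2427 CPM), and their part in this difference was not tested. Adamts10 gave log2 0.70 ± 0.18 (adjusted p = 0.416) at day 1, and a call without day-1 ZT16 replicate 4 (log2 0.86, adjusted p = 0.0251). Mmp9 gave log2 -1.38 ± 0.37 (adjusted p = 0.416) at day 1. At day 3 Mmp14 and Mmp9 had all 4 ZT4 values above all 4 ZT16 values (log2 -0.52 ± 0.13, adjusted p = 0.642 for Mmp14 and log2 -0.89 ± 0.39, adjusted p = 0.734 for Mmp9), and Adamts1 gave log2 -0.83 ± 0.39 (adjusted p = 0.747).

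Whether the time difference itself changed with injury was tested by interaction terms. Between uninjured and day 1 it differed for 1 member, Mmp19 (log2 -1.20 ± 0.27, adjusted p = 0.0105), where 7.46% of all genes passed (3.93% upward, 3.53% downward). Its ZT16 minus ZT4 difference was 0.38 in uninjured and -0.82 in day-1 cells, and its call was lost with limma voom (log2 -1.17, adjusted p = 0.051). Between uninjured and day 3 the time difference differed for 5 members, where 12.8% of all genes passed (6.8% upward, 5.97% downward). Adamts1 (log2 -2.29 ± 0.57, adjusted p = 0.0138), Adamts6 (log2 -4.06 ± 1.12, adjusted p = 0.0171), Timp3 (log2 -1.81 ± 0.47, adjusted p = 0.0153) and Adamts10 (log2 -0.90 ± 0.28, adjusted p = 0.0399) had a lower ZT16 minus ZT4 difference at day 3 than in uninjured cells, and Mmp11 (log2 0.94 ± 0.30, adjusted p = 0.0378) a higher one. Without uninjured ZT16 replicates 1 and 3, no member passed for day 1 (Mmp19 at -1.01, adjusted p = 0.177), and none of these 5 passed for day 3. Adamts1 (-1.22, adjusted p = 0.367) and Adamts6 (-1.45, 0.741) were smaller in that fit, while Timp3 (-1.73, 0.148) and Adamts10 (-0.85, 0.234) were about as large and Mmp11 (1.265, 0.0831) larger. The single member that passed there was Mmp16, which had too few counts for a test over all libraries. For Adamts10 and Mmp11 the day-3 call was lost in most fits that left out a single library, with adjusted p up to 0.0962 and 0.0824, at differences of -0.94 to -0.76 for Adamts10 and 0.835 to 0.96 for Mmp11 in those fits.

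**Figure D5:**
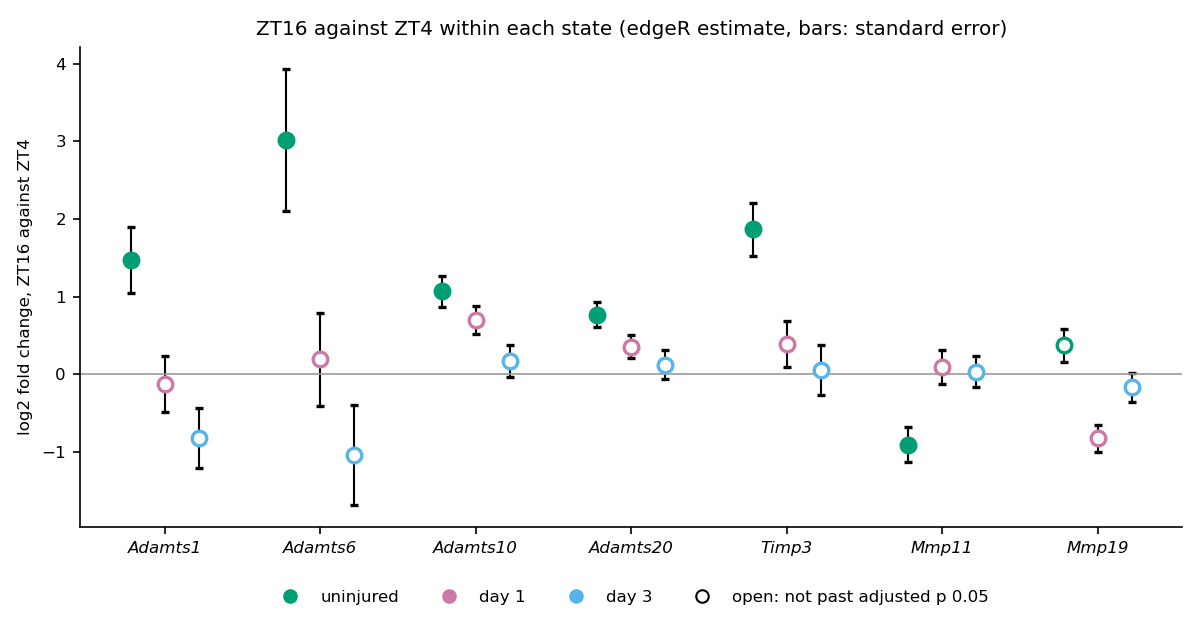
Log2 fold changes of ZT16 against ZT4 in uninjured (green), day-1 (pink) and day-3 (blue) cells for 7 members, with standard errors (filled: adjusted p under 0.05). The filled points are all in uninjured cells, where Adamts10 is 1.07 higher and Mmp11 0.91 lower at ZT16, and neither passes without uninjured ZT16 replicates 1 and 3, at 1.02 and -1.23.

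Other genes of the same pathways were counted from lists. Among 17 tested genes that activate or control MMPs, 5 rose and 8 fell at day 1 (median log2 change -0.28, against -0.13 over all genes tested), and 6 rose and 7 fell at day 3 (-0.33, against -0.03). On both days 76.5% of this list passed, near the 75.2% (day 1) and 76.9% (day 3) of all genes tested. Plaur, the urokinase receptor, rose by log2 5.24 ± 0.28 (adjusted p = 4.12e-12) at day 1 and log2 4.03 ± 0.28 (adjusted p = 1.2e-10) at day 3. Reck, a membrane-anchored MMP inhibitor, fell at day 3 (log2 -3.82 ± 0.21, adjusted p = 2.91e-14). Lrp1, an endocytic receptor that clears MMPs and TIMPs, fell at day 1 (log2 -1.03 ± 0.10, adjusted p = 1.63e-09) and day 3 (log2 -1.66 ± 0.10, adjusted p = 1.82e-13). Pcolce, which enhances procollagen C-proteinase, fell at day 1 (log2 -0.46 ± 0.12, adjusted p = 0.00103) and rose at day 3 (log2 1.37 ± 0.12, adjusted p = 9.95e-11).

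Among 15 tested ADAM and ADAMTS-like genes, 5 rose and 6 fell at day 1 (median -0.32), and 6 rose and 4 fell at day 3 (median 0.72). The share that passed was 73.3% at day 1 and 66.7% at day 3, against 75.2% and 76.9% of all genes tested. Adam19 rose by log2 3.38 ± 0.20 (adjusted p = 2.32e-13) at day 1 and log2 3.92 ± 0.20 (adjusted p = 1.12e-14) at day 3, and Adam8, a protease known from leukocytes, by log2 5.68 ± 0.37 (adjusted p = 6.29e-11) at day 1. Adamtsl4, which binds fibrillin-1 as ADAMTS10 does, fell at day 1 (log2 -1.79 ± 0.19, adjusted p = 1.7e-08) and day 3 (log2 -3.86 ± 0.21, adjusted p = 1.53e-13). Of the substrates, 21 of 24 tested collagen and basement membrane genes fell at day 1 and 2 rose, with a median log2 change of -1.33, and 16 fell and 8 rose at day 3 (median -0.83). Over all genes tested, 40.6% fell and 34.6% rose at day 1, and 39.1% fell and 37.9% rose at day 3. The collagen IV genes Col4a1 and Col4a2 stood at log2 -3.90 ± 0.14 (adjusted p = 1.74e-16) and log2 -3.35 ± 0.13 (adjusted p = 4.89e-17) at day 3, and the laminin gene Lama2 at log2 -1.63 ± 0.11 (adjusted p = 3.27e-12) at day 1. Fn1, fibronectin, rose by log2 4.07 ± 0.23 (adjusted p = 7.11e-12) at day 1. Among 13 tested proteoglycans and other ADAMTS substrates, 2 rose and 8 fell at day 1 (median -0.72), and 4 rose and 6 fell at day 3 (median -0.73). On both days 76.9% of this list passed, near the shares over all genes tested (75.2% at day 1 and 76.9% at day 3). The versican gene Vcan rose by log2 4.82 ± 0.34 (adjusted p = 2.23e-11) at day 1 and log2 5.14 ± 0.33 (adjusted p = 5.62e-12) at day 3.

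Between the times in uninjured cells, Plat, tissue plasminogen activator, was lower at ZT16 (log2 -1.76 ± 0.36, adjusted p = 0.00203). In the same comparison Adamtsl4 gave log2 1.004 ± 0.28 (adjusted p = 0.0159), in the direction of Adamts10. Of the 17 tested genes that activate or control MMPs 5 passed, and of the 15 ADAM and ADAMTS-like genes 3, where 17.7% of all genes did. Plat and Adamtsl4 were not followed in the alternative fits, including the one without uninjured ZT16 replicates 1 and 3.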

How the data were processed

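The deposited files are transcript-level RSEM output, 1 per library, with expected (estimated) counts, TPM and effective length in bases for each transcript, per the file headers. RSEM 1.3.3, STAR 2.5.2, DESeq2 and Trimmomatic 0.33 with the mm10 genome are named in the submitters' processing notes; the annotation release and the strand used in counting are not given in the sources used here. Libraries were made with a SMART-seq v4 kit from sorted, fixed cells, per the labels' protocols.

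The authors' expected counts were summed per gene and rounded, and gene names were taken from GENCODE M21 on GRCm38. Genes passing the edgeR filter (minimum count 10, minimum total 15; 15084 genes kept, 28346 left out) from all 22 libraries entered 1 quasi-likelihood fit in edgeR 4.0.16 (R 4.3.3) with a mean per group, TMM factors of 0.942 to 1.094 and 8 contrasts, where states were compared over the mean of both times. CPM are on TMM-scaled library sizes. The authors' TPM were summed per gene to compare levels between genes, and effective length served for offsets in an alternative. The fit was tested on simulated counts. Alternatives were DESeq2 1.42.0, limma 3.58.1 voom with quality weights, upper-quartile scaling, other filters, length offsets, a replicate block, smaller fits and libraries left out. Within groups, libraries differed by far more than counting noise (chi-square over degrees of freedom 3.82 to 65.1), so none was counted as a duplicate.

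Values in every library are given for the 25 members with a group mean of at least 5 CPM that passed in at least 1 comparison, and ranges for the others. From each pathway list, genes were named among the 4 with the smallest p in a comparison. The members and the 4 pathway and 9 marker lists were chosen with earlier results of these data known. Counting intervals and floors (3 counts over a group) cover counting error only. Promoters are RefSeq's, on GRCm38.p6. Values of 2 other genes are not reported here.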

Additional observations from a re-analysis of the deposited data

Results flagged for a closer look

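Of 100 sets of 4 injured libraries checked over the 25 members given by library, 5 had 1 value far from the other 3, where chance gives about 1 in 20. Adamts5 was at 8.45 CPM in day-3 ZT16 replicate 4 against 10.5 to 10.7 CPM in the others. Mmp2 was at 21.5 CPM in day-1 ZT16 replicate 4 against 53.2 to 58.0 CPM, and that library was also low in Junb. Mmp12 was at 7.48 CPM in day-3 ZT4 replicate 4 against 5.34 to 5.56 CPM. Mmp14 was at 72.2 CPM in day-1 ZT16 replicate 1 against 56.2 to 56.9 CPM. Timp4 was at 1.05 CPM in day-3 ZT4 replicate 4 against 0.297 to 0.417 CPM.

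The ZT16 minus ZT4 difference itself changed with injury for 6 members by edgeR's interaction test. Mmp19 changed by log2 -1.20 between uninjured and day 1 (adjusted p = 0.0105), a call lost with limma voom (log2 -1.17, adjusted p = 0.051). Between uninjured and day 3, Adamts1 changed by log2 -2.29 (adjusted p = 0.0138), Timp3 by -1.81 (0.0153), Adamts6 by -4.06 (0.0171), Mmp11 by 0.94 (0.0378) and Adamts10 by -0.90 (0.0399). None of the 6 passed without uninjured ZT16 replicates 1 and 3, where Mmp19 stood at -1.01, Adamts1 at -1.22, Timp3 at -1.73, Adamts6 at -1.45, Mmp11 at 1.265 and Adamts10 at -0.85.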

How the results depend on the processing

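No called member changed direction under any alternative run: of 2042 values of single members, 1918 kept their call, 71 lost it and 53 gained one. The counts of called members between states stayed within 1.5 times under each alternative, and without 1 library they ranged from 23 to 26 (day 1 against uninjured), 26 to 29 (day 3 against uninjured) and 23 to 25 (day 3 against day 1). Between the times in uninjured cells, 7 calls became 2 with only the uninjured groups fitted, 1 without uninjured ZT16 replicates 1 and 3, and 4 to 6 without 1 library. At day 1 the 0 calls became 1 with DESeq2, 2 with limma voom, 3 without a filter on low counts, and 0 to 1 without 1 library. At day 3 the 0 calls became 1 without a filter and stayed 0 without 1 library. For the time difference changing at day 1, 1 call became 4 with DESeq2, 3 without a filter, 2 with limma voom, upper-quartile scaling, a mean of at least 1 CPM or length offsets, 0 without uninjured ZT16 replicates 1 and 3, and 1 to 3 without 1 library. For day 3, 5 calls became 1 without those 2 libraries, and 3 to 5 without 1 library. With limma voom the 2 calls for the time difference changing at day 1 were Timp3 and Adamts1, and Mmp19 lost its call (log2 -1.17, adjusted p = 0.051). The causes of these shifts were not tested.

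Same-numbered libraries did not deviate together (correlations -0.098 to 0.129), so the numbers were not taken as pairs. With the replicate block, 25, 26 and 24 members passed in the 3 state comparisons, 6 between the times in uninjured cells, 0 at day 1 and 0 at day 3, and 1 and 4 for the changes of the time difference. In simulated counts, a change of log2 1 was recovered for 69 of 100 genes in day 1 against uninjured and for 58 of 100 between the times in uninjured cells. For the time difference changing at day 1, recovery was lower, at 41 of 100 genes for log2 1 and 73 of 100 for log2 2.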

Other observations

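Among members with too few counts for the main test, 4 passed against uninjured cells in edgeR fits with no filter on low counts. Mmp13 and Mmp16 were higher at day 3 (log2 5.25, adjusted p = 0.000248, and log2 3.52, adjusted p = 0.0025, with no filter), and Adamts17 was lower at day 1 (log2 -4.34, adjusted p = 0.000255, with no filter). Mmp27, next to Mmp8 on chromosome 9, was at log2 4.41 at day 3 with no filter (adjusted p = 0.00406), on 21 counts in day-3 and 0 in uninjured cells.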
